A study of Drosophila melanogaster with 2 samples.

Results

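Peaks of stc (shuttle craft), which has zinc fingers and is the fly relative of NFX1 in humans, were examined in Drosophila melanogaster. The genes examined were 10 genes of glycolytic enzymes, out of 13945 protein-coding genes on the main chromosomes. Of these 10, Gapdh2 and Gapdh1 encode the same enzyme, and none encodes aldolase. The members, in the order of the pathway, were Hex-A, Pgi, Pfk, Tpi, Gapdh2, Gapdh1, Pgk, Pglym78, Eno and PyK, all of which matched the Ensembl annotation. They were chosen by their function and with peaks of these same data in view, so the values below describe these genes and carry no test. A peak was given to a member when its summit, the position of highest signal, lay in the gene body or within 2 kb on either side. Gapdh2 was set against its paralogue Gapdh1 because the peaks at the pair differ.

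Chromatin came from whole embryos collected over the interval from 0 to 24 h of development, of a transgenic strain that carries stc fused to enhanced green fluorescent protein (eGFP), and was precipitated with an antibody against GFP. There was 1 group with 2 biological replicates, no second condition and no control library analysed here. The promoter that drives the tagged protein is not stated in the labels, and an embryo of any stage and every cell type could contribute to a peak. For each replicate and for the series the authors deposited long ranked lists of peaks and short thresholded lists. The conservative thresholded list of the series, with 3831 peaks, is meant where no list is named. The larger thresholded list had 5084 peaks, replicate 1 had 2782 and replicate 2 had 3806. Every thresholded peak had an irreproducible discovery rate (IDR) of 0.01 or less, a measure of how well the rank of a peak is repeated between a pair of lists. Signal is the authors' own value of a peak, in a unit that the sources used here do not explain, and read depth is unknown. For 2037 peaks found in both replicates the series signal was close to the sum of the replicate signals (median ratio 1.00, interquartile range 0.981 to 1.02). At the stc gene itself there were 0 peaks.

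Glycolysis splits glucose into pyruvate and yields ATP and NADH. Hexokinase, phosphofructokinase and pyruvate kinase catalyse its irreversible steps, and the enzymes between them also run in the reverse direction. In the fly embryo, glycolytic genes are known to be raised together around the middle of embryogenesis, a switch that depends on the nuclear receptor ERR and prepares the larva for rapid growth.

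The bases are shown around the summits of the 3 strongest peaks within 250 bp of a start site. Those of a pair of peaks in introns of Pgk and PyK are shown too. These peaks were picked because runs of A and T cover or flank several of the summits and are fewest, among those shown, at PyK. The bases are written in the direction of transcription, from the RefSeq Release 6 assembly (dm6). Every unbroken run of at least 6 A or T bases is in capitals. The summit is base 51 of each. The positions are chrX:15867937-15868037 on the plus strand for Gapdh2, chr2L:1727881-1727972 on the minus strand for Eno, chrX:9585443-9585543 on the plus strand for Hex-A, chr2L:2748793-2748853 on the minus strand for Pgk and chr3R:22368987-22369087 on the plus strand for PyK. The sequences of Eno and Pgk are shorter because they stop where an exon begins.
Gapdh2: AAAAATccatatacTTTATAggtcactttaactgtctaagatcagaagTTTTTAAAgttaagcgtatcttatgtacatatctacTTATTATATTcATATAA
Eno: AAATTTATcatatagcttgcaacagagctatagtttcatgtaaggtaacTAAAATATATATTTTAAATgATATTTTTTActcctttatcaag
Hex-A: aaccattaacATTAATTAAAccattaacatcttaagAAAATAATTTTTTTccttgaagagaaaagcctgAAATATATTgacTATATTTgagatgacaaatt
Pgk: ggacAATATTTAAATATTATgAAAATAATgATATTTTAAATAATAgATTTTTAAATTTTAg
PyK: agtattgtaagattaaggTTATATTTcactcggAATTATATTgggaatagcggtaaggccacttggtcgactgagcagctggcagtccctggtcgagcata

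The Gapdh2 sequence held 5 such runs, the longest of 10 bases. The Eno sequence held 3, the longest of 19 bases, and the Hex-A sequence held 4, the longest of 14 bases. In the conservative list the summit base itself lay in a run at Gapdh2, Eno and Pgk, and in none at Hex-A and PyK. At Hex-A, however, the run of 14 bases ended at the base next to the summit. The place of a summit also varied between lists, and with it whether the summit lay in a run. At Eno it lay outside the runs in the lists of both replicates, and at Gapdh2 in that of replicate 1. At Hex-A it lay in a run in the list of replicate 2. The Hex-A summit lay 182 bp upstream of the TSS in the conservative list, 120 bp in replicate 1 and 161 bp in replicate 2. No share of all peaks with a summit in a run is given. In the Pgk sequence 53 of the 61 printed bases lay in runs, against 17 of 101 in the PyK sequence. These lengths are unlike, because the Pgk sequence stops at an exon. The share of A and T at Pgk was 88.5% in the 61 printed bases and 72.3% in the full 101 bp, against 55.4% at PyK. A peak past the 3′ end of Pglym78, not printed, held as few runs as PyK, 2 with 17 bases, at a share of 74.3%. A peak farther upstream of Hex-A (signal 356.1), not printed, held 4 runs and had its summit in none.

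Peaks lay at 6 of the 10 members, against 27% of all protein-coding genes. These were Hex-A, Gapdh2, Pgk, Pglym78, Eno and PyK. A summit lay within 250 bp of an annotated transcription start site (TSS) of the gene at 5 members, all of these except Pgk, against 10.2% of all genes. In the larger list the same counts were 6 and 5 of 10, against 32.8% and 13.4% of all genes. The own list of replicate 1 gave 4 and 4, against 22.2% and 8.18%, and that of replicate 2 gave 7 and 5, against 27.2% and 10.8%. The members were chosen with these peaks known, so nothing is read from their shares. Their median gene length was 3654.5 bp, against 2166 bp over all genes, and the part of length in these counts was not tested.

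**Figure D1:**
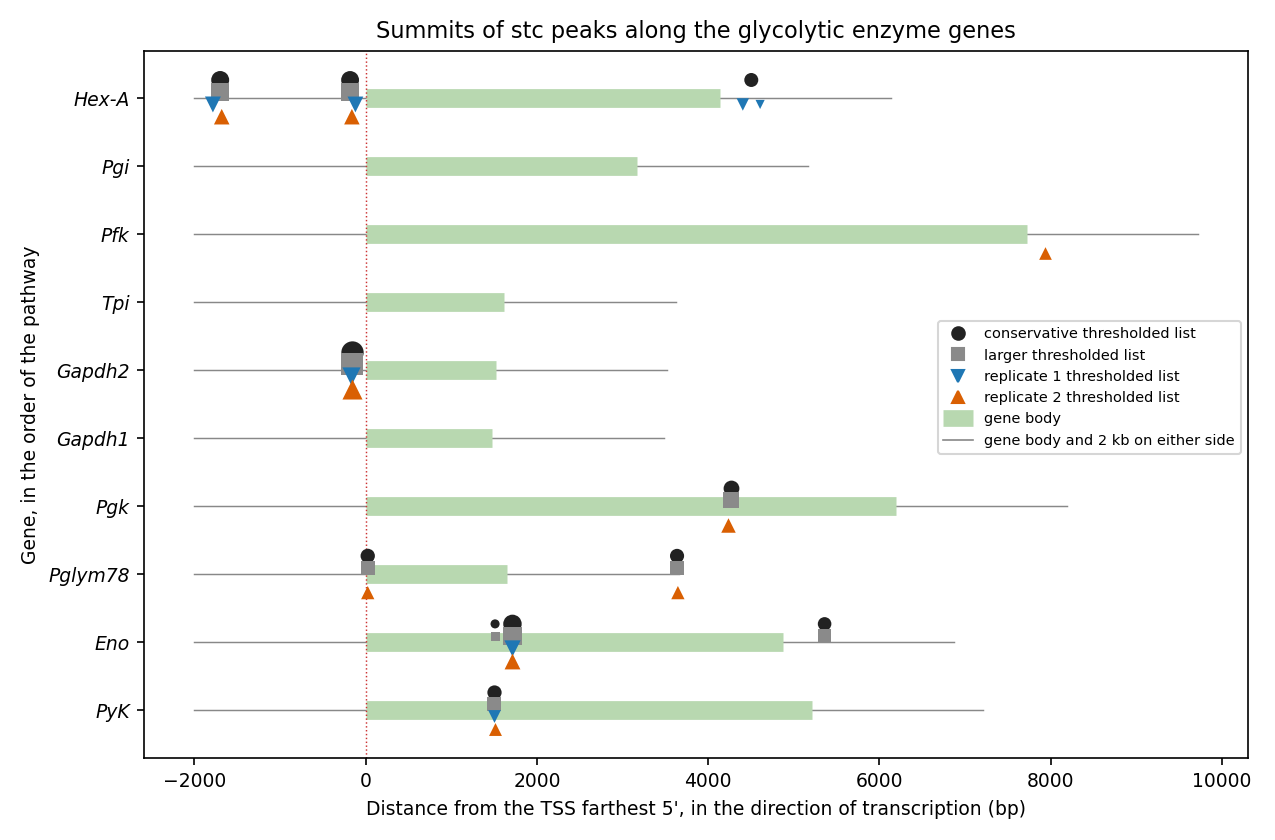
Summits of the peaks along each glycolytic enzyme gene, by distance in bp from its TSS farthest 5′, with green bars for gene bodies, thin lines for the 2 kb on either side and 1 symbol for each of the 4 thresholded lists (larger symbols for higher signal). The Gapdh2 row has a summit in all 4 lists at 158 to 167 bp upstream, and the rows of Pgi, Tpi and Gapdh1 are empty.

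The 6 members held 11 peaks, of which 5 overlapped a peak in the lists of both replicates, 1 in that of replicate 1 alone, 3 in that of replicate 2 alone and 2 in neither, where an overlap covered at least 50% of the shorter peak. The members with a peak in both replicates were Hex-A, Gapdh2, Eno and PyK. The weakest of the 11 was a peak of signal 2.44 in an exon of Eno that overlaps the stronger Eno peak. Of the summits within 250 bp of a TSS, 4 of 5 lay 150 to 250 bp upstream of it. Among all 1190 peaks with a summit within 250 bp of a protein-coding TSS, 25.5% lay in that range, and the median position was −96 bp, with negative values for upstream. The range was not among the planned settings and was set with the members' summits known, so nothing is read from the comparison. Eno and PyK fall in it only through an internal TSS, and the Hex-A summit lay 120 bp upstream in replicate 1.

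Hex-A (FBgn0001186; X, 9585675 to 9589813, plus strand) encodes the hexokinase that phosphorylates glucose at entry into the pathway. It had 3 peaks. The peak at its start site (X, 9585414 to 9585624) had a signal of 348.3 and a summit 182 bp upstream of the TSS. In replicate 1 this peak had a signal of 185.1 with the summit 120 bp upstream, and in replicate 2 it had a signal of 168.7 with the summit 161 bp upstream. Both replicates thus placed it upstream of the start site and gave it a like signal. A second peak of nearly the same signal, 356.1, lay farther upstream (X, 9583821 to 9584067), with its summit 1699 bp from the Hex-A TSS. That summit was closer to a non-coding gene, lncRNA:CR45541, being 201 bp upstream of its TSS. Its signal was 192.8 in replicate 1 and 169.7 in replicate 2. The third peak, with a signal of 94.9, lay 365 bp past the 3′ end of Hex-A in an exon of lncRNA:CR45542, and passed the threshold in replicate 1 (signal 46.5, IDR 0.00638) and not in replicate 2 (signal 49.5, IDR 0.0279). The list of replicate 1 held a further, overlapping peak there with a signal of 2.78.

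Pgi, Pfk and Tpi, the next members in the pathway, had no peak in the conservative list. Pgi (FBgn0003074) encodes the isomerase that turns glucose 6-phosphate into fructose 6-phosphate, Pfk (FBgn0003071) encodes phosphofructokinase, the main control point of the pathway, and Tpi (FBgn0086355) encodes triose phosphate isomerase. Pgi lies on 2R from 8910900 to 8914069, Pfk on 2R from 10109740 to 10117457 and Tpi on 3R from 30132981 to 30134599. The nearest conservative summit was 10606 bp from Pgi, 6923 bp from Pfk and 36213 bp from Tpi. Their strongest ranked peaks had signals of 40.1 at Pgi (IDR 0.288), 61.9 at Pfk (IDR 0.176) and 48.7 at Tpi (IDR 0.066). These signals exceeded the strongest ranked peak of 34.1%, 60.2% and 46.2% of all genes, so that the 3 genes lay in the middle of the range. Pfk had 1 peak in the list of replicate 2 alone, with a signal of 51.6 and an IDR of 0.00392. Its summit was 211 bp past the 3′ end of Pfk and 26 bp upstream of the TSS of the neighbouring gene dmpd. The strongest ranked peak of Pfk in replicate 1 had a signal of 26.6 and an IDR of 0.776.

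Gapdh2 (FBgn0001092; X, 15868145 to 15869661, plus strand) had the strongest peak among the members. It encodes glyceraldehyde 3-phosphate dehydrogenase, the enzyme that makes NADH in glycolysis. The peak (X, 15867839 to 15868121) had a signal of 992.2, with its summit 158 bp upstream of the TSS and no TSS of another gene within 500 bp upstream on the opposite strand. The signal was 381.4 in replicate 1 and 607.0 in replicate 2, with the summit 167 bp and 158 bp upstream. The replicates thus placed the summit close together. Their signals differed, but read depth is unknown, so the 2 heights may not be on 1 scale. The Gapdh2 peak ranked 66 in the list of replicate 1, 17 in that of replicate 2 and 31 in the conservative list. Among the 1190 peaks with a summit near a protein-coding TSS it ranked 23, and the peaks next above it in signal lay at osp (1035.0), MFS18 (1028.3) and mRpL23 (993.2), those next below at CG1635 (980.8), tank (957.3) and Elp5 (954.1). The likeness of these genes to Gapdh2 is in the signal alone.

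Gapdh1 (FBgn0001091; 2R, 7791901 to 7793380, minus strand), which encodes the same enzyme, had no peak in any of the 4 thresholded lists. Its strongest ranked peak had a signal of 56.4 in the conservative ranked list, with the summit 957 bp downstream of a TSS and an IDR of 0.722. That signal exceeded the strongest ranked peak of 55.3% of all genes. In replicate 1 the strongest ranked peak had a signal of 36.2, 922 bp downstream, with an IDR of 0.0114, just outside the threshold of 0.01. In replicate 2 it had a signal of 38.7, 497 bp upstream, with an IDR of 0.114. None of these Gapdh1 peaks passed the threshold and they lay at different places, so no ratio to the Gapdh2 signal is given. At the place upstream of Gapdh1 that matches the Gapdh2 summit, 158 bp from the TSS, there were 0 ranked peaks in each of the 4 ranked lists. The nearest conservative summit lay 15131 bp from Gapdh1, against 158 bp from the Gapdh2 TSS.

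The coding sequences of Gapdh2 and Gapdh1 are 996 bp long each and identical at 884 bases (88.8%). The 300 bp upstream of their TSSs farthest 5′ aligned with 130 identical bases of 292 aligned (44.5%). The share of A and T bases in those 300 bp was 65.3% at Gapdh2 and 69.3% at Gapdh1, and in the 101 bp around the summit and the matching place it was 76.2% at Gapdh2 and 73.3% at Gapdh1. The overall share of A and T was thus alike at the pair, and runs of A and T were not compared. Any part of the sequence in the difference between the peaks was not tested. Gapdh1 lies head to head with PolZ1, whose TSS is 245 bp upstream on the opposite strand. The sources used here do not say how reads that match both paralogues were treated.

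**Figure D2:**
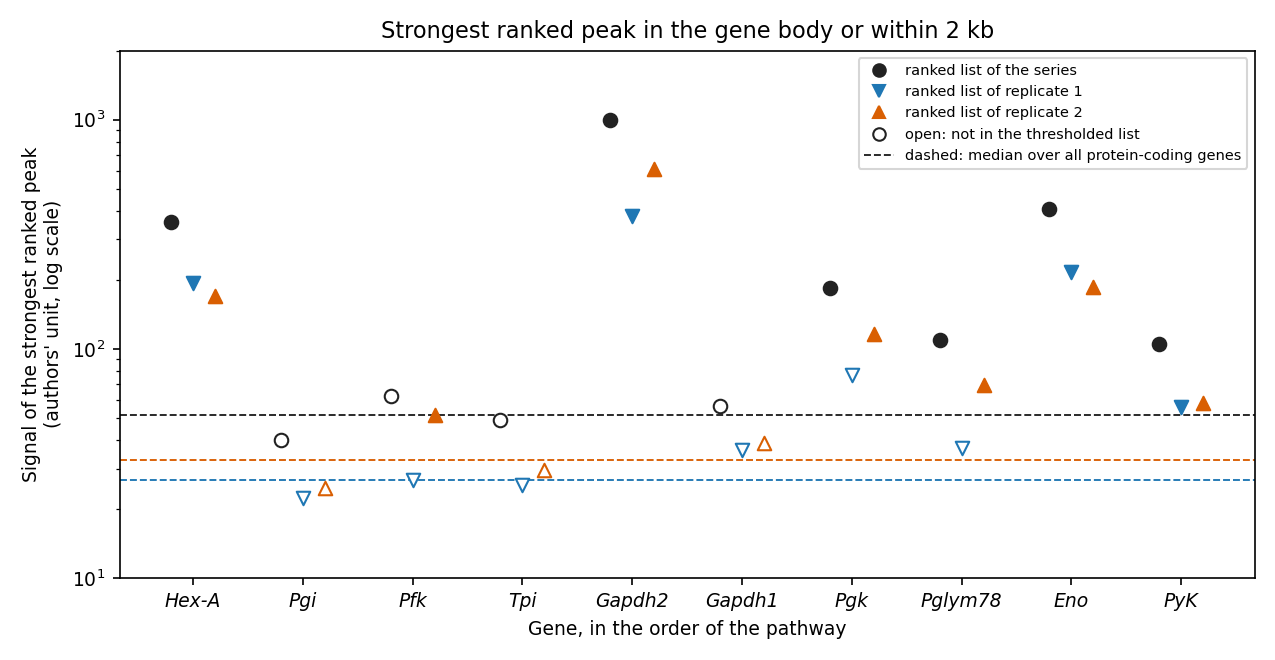
Signal of the strongest ranked peak in the gene body or within 2 kb of each glycolytic enzyme gene on a log scale, in the conservative ranked list of the series (black) and in the ranked lists of replicate 1 (blue) and replicate 2 (orange), with open symbols for peaks outside the thresholded list and dashed lines for the medians over all 13945 genes. Gapdh2 is highest in all 3 lists, and Pgi and Tpi lie below each median.

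Over the 10 members the median of the strongest ranked signal was 106.9 in the conservative ranked list, against 51.6 over all genes, with a gene that has no ranked peak counted as 0. The same medians were 46.4 against 26.8 in replicate 1 and 63.7 against 32.7 in replicate 2. The members were chosen with these peaks known, so nothing is read from these medians. A longer gene offers more bases for a peak, and the part of gene length in these values was not tested. The range over the members, from 40.1 at Pgi to 992.2 at Gapdh2, spans both sides of the median over all genes. The 4 members without a listed peak lay between 40.1 and 61.9.

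Pgk (FBgn0250906; 2L, 2746880 to 2753068, minus strand) encodes phosphoglycerate kinase, which forms ATP. Its peak (2L, 2748628 to 2748977) had a signal of 183.8 and lay in an intron, 316 bp upstream of an internal TSS and 4265 bp downstream of the TSS farthest 5′. It was listed in replicate 2, with a signal of 115.8, and not in replicate 1, where the ranked peak had a signal of 63.3 and an IDR of 0.836. The position of Pgk just outside the window of 250 bp, and of PyK with 245 bp just inside it, decides which of the pair is counted at a TSS. Pgk was also the only member with ranked peaks of IDR 0.01 or less that the thresholded lists do not hold. There were 6 in the conservative ranked list, with signals of 7.56 to 135.9 and between bases 2749324 and 2754949 of 2L, one of them 186 bp upstream of a Pgk TSS. There were 3 in the larger list, 3 in replicate 1 and 4 in replicate 2. The sources used here do not say why the thresholded lists lack them. Of the 3927 conservative ranked peaks with such an IDR, 96 were not in the thresholded list.

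Pglym78 (FBgn0014869; 3R, 29148248 to 29149901, plus strand) encodes phosphoglycerate mutase. Its peak at the start site (3R, 29148097 to 29148446) had a signal of 108.7 and was the only one of the 5 with its summit downstream of the TSS, by 24 bp. The gene lies head to head with CG11882, with 76 bp between their start sites, and the summit was 100 bp upstream of the CG11882 TSS. The signal was 69.3 in replicate 2, where the peak was listed, and 37.0 in replicate 1, where it was not (IDR 0.113). A second peak (3R, 29151709 to 29152058), with a signal of 100.03, lay 1983 bp past the 3′ end of Pglym78 and 90 bp upstream of the TSS of eIF2D, a translation initiation factor gene. It too was listed in replicate 2 (signal 69.6) and not in replicate 1 (signal 34.5, IDR 0.336). The pair of peaks thus had like signals, and neither passed the threshold in replicate 1.

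Eno (FBgn0000579; 2L, 1724768 to 1729636, minus strand) encodes enolase, which forms phosphoenolpyruvate. Its main peak (2L, 1727833 to 1728042) had a signal of 406.4 and was the second strongest of the members. The summit was 205 bp upstream of an internal TSS and 1714 bp downstream of the TSS farthest 5′, in an intron of 4 of the 6 annotated transcripts. The signal was 217.4 in replicate 1 and 186.7 in replicate 2, with summits 213 bp and 208 bp upstream of that TSS. The replicates placed the summit within a few bases of each other. Eno also lies head to head with CG31937, 251 bp from its farthest 5′ TSS, where no conservative peak was listed. A further peak (2L, 1724102 to 1724451), with a signal of 78.9, lay 491 bp past the 3′ end of Eno and 111 bp downstream of the TSS of Rim2, the neighbouring gene. It was in neither replicate's own list, with ranked signals of 35.5 (IDR 0.535) in replicate 1 and 49.2 (IDR 0.0118) in replicate 2.

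PyK (FBgn0267385; 3R, 22367536 to 22372746, plus strand) encodes pyruvate kinase, the last enzyme of the pathway. Its peak (3R, 22368862 to 22369211) had a signal of 105.1, with the summit 245 bp upstream of an internal TSS and 1501 bp downstream of the TSS farthest 5′. The signal was 55.8 in replicate 1 and 57.7 in replicate 2, with summits 243 bp and 234 bp upstream of the internal TSS. This was the weakest member peak that both replicates listed. PyK lies head to head with Polr3F, 163 bp from its farthest 5′ TSS, where no conservative peak was listed. For Eno and PyK the choice of TSS thus decides whether the gene is counted, since with the TSS farthest 5′ alone 3 members had a summit within 250 bp, namely Hex-A, Gapdh2 and Pglym78.

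**Figure D3:**
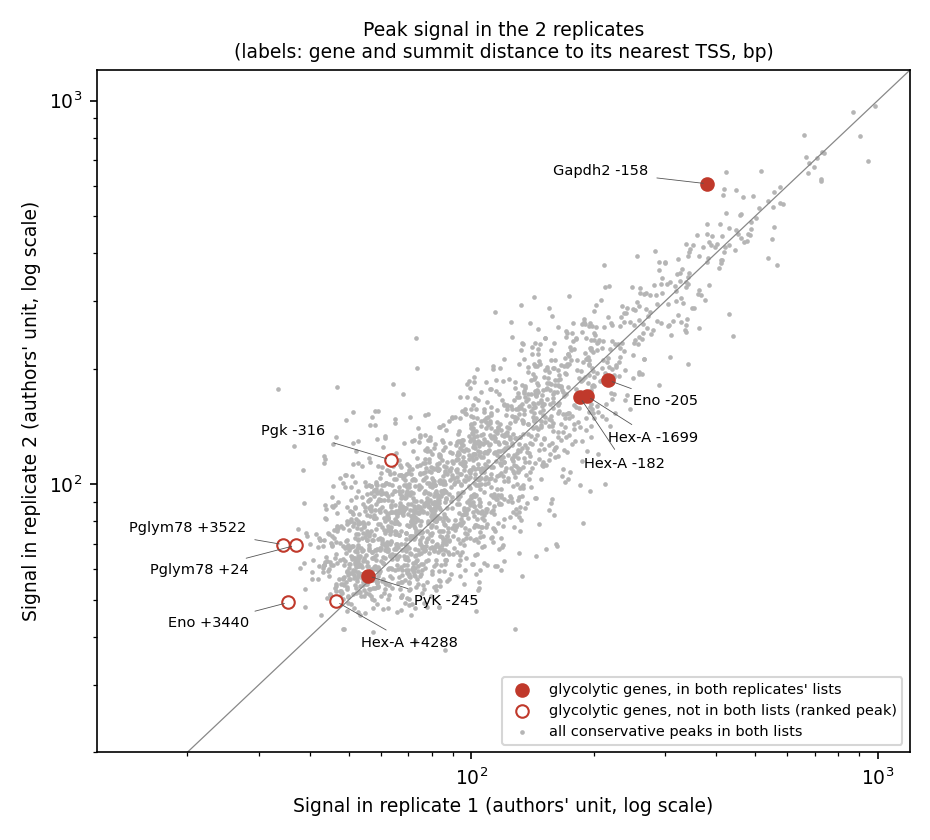
Signal in replicate 1 (x axis) and replicate 2 (y axis) of the 10 peaks at the glycolytic enzyme genes with a ranked counterpart in both replicates (red, named by gene and distance in bp from the summit to its nearest TSS) and of all 2037 conservative peaks in both replicates' lists (grey), on log scales in the authors' unit with a line of equal signal. Gapdh2 lies above the line with 381.4 in replicate 1 and 607.0 in replicate 2, and the open circles, which are not in both lists, lie at 34.5 to 63.3 in replicate 1.

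Base composition was examined in the 101 bp centred on each summit. Over the 11 member peaks the median share of A and T was 67.3%, against 68.3% over all 3831 summits, and 58.4% at 300 bp from the member summits, against 56.4% at that distance from all summits. The median over the same length of all promoters, centred 100 bp upstream of the TSS, was 63.4%. Among the member peaks of higher signal the share was 76.2% at Gapdh2, 78.2% at the main Eno peak, 77.2% at the Hex-A start site and 72.3% at Pgk. It was 66.3% at the upstream Hex-A peak. Among the peaks of signal near 100 the share was 74.3% at the second Pglym78 peak and 67.3% at the third Hex-A peak. At PyK it was 55.4% and at the Pglym78 start site 47.5%, both lower than the mean share 300 bp to either side of the same summits. So were the weaker Eno peaks, with 46.5% against 62.4% (signal 78.9) and 53.5% against 58.4% (signal 2.44). All other member peaks had a higher share at the summit. The 11 member peaks ran from 46.5% at the peak past the 3′ end of Eno to the 78.2% of the main Eno peak. Across all 3831 peaks Spearman's rho between signal and the share of A and T was 0.337, as a description across peaks of 1 pool, and the 400 peaks of highest signal had a median of 73.3%.

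**Figure D4:**
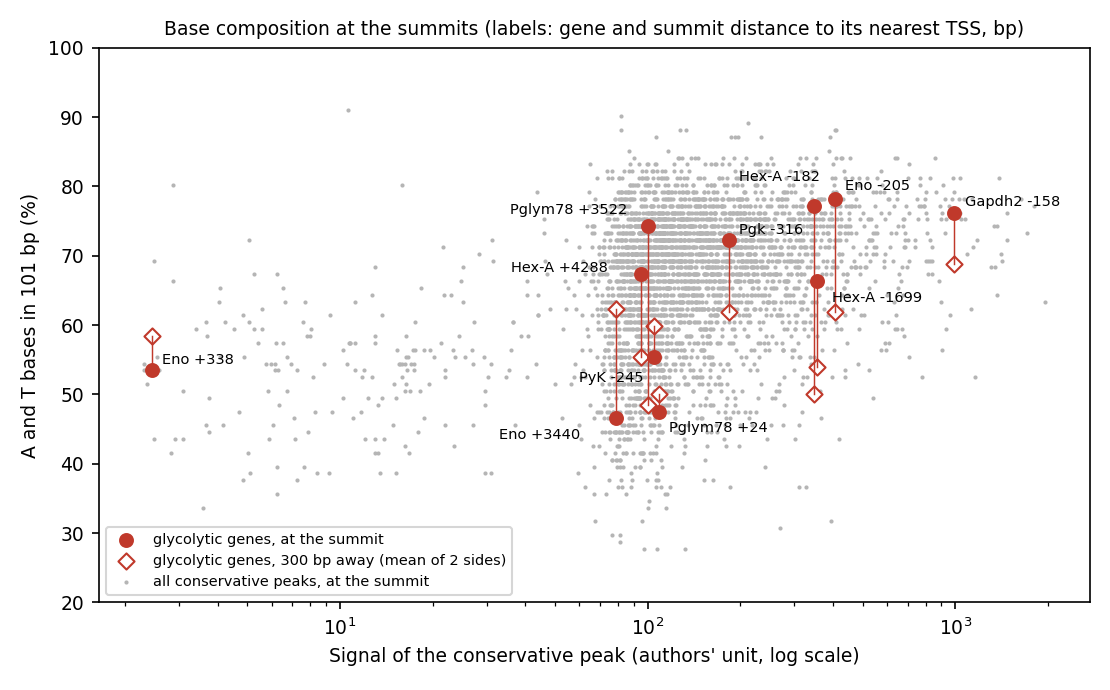
Share of A and T in the 101 bp at the summit (y axis, %) against the signal of the conservative peak (x axis, log scale, authors' unit) for the glycolytic enzyme genes (filled red circles) and for all conservative peaks (grey), with open diamonds for the mean share 300 bp to either side of each member summit. Gapdh2, the main Eno peak and the Hex-A start site lie at 76.2% to 78.2%, and PyK and the Pglym78 start site lie at 55.4% and 47.5%.

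Of 11 motifs searched on both strands within 50 bp of the member summits, 7 had no match at any of the 11 peaks. These were CACGTG (an E-box), TATCGATA (the DRE), AAGGTCA (a nuclear receptor site that ERR binds), GGTCACAC (the core of Motif 1, bound by M1BP), CAGGTAG (bound by Zelda), TGACGTCA (the CRE) and TACGTG (the hypoxia response element). They are rare at all peaks too, at 0.783%, 0.783%, 0.679%, 0.470%, 0.444%, 0.0783% and 1.70% of the 3831 summits in that order, and at 0.990%, 2.62%, 0.703%, 1.39%, 0.645%, 0.172% and 1.72% of promoters of the same length. TATAAA, the TATA box, matched at Gapdh2 alone, 36 bases before the summit and on the opposite strand, so that it reads TTTATA in the printed sequence. It was in 22.7% of all summits and 18.2% of promoters. GAGAG, bound by GAGA factor, matched at the upstream Hex-A peak alone (10.3% of summits, 13.4% of promoters). CAGCTG, another E-box, matched at that peak and at PyK (2.77% and 5.02%). TCAGT, the initiator core, matched at 4 of the 11 peaks, the upstream Hex-A peak, PyK and the weaker Eno pair (17.3% and 16.4%). A match is a description of these letters only.

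Other genes of carbohydrate metabolism were taken from 7 lists of 77 symbols, of which 69 matched the annotation. A peak lay in the gene body or within 2 kb at 34 of the 69 (49.3%), and a summit within 250 bp of a TSS at 13 (18.8%), against the 27% and 10.2% of all genes given above. Among 9 matched genes of entry into and exit from glycolysis, 2 had a summit at a TSS. Ldh, lactate dehydrogenase, had a signal of 314.6 with the summit 208 bp upstream, close to the position at Eno. Gpdh1, glycerol 3-phosphate dehydrogenase, had a signal of 102.5 with the summit 92 bp downstream. Both peaks were also near a TSS in the lists of both replicates.

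The share of all genes with a summit at a TSS was 10.2%, and nothing is read from the shares of the short lists that follow. Of 5 matched genes of glycogen and trehalose metabolism, 3 had a summit at a TSS (60%). They were Gyg (glycogenin, which primes glycogen, signal 340.7), Pgm1 (phosphoglucomutase, 157.9) and UGP (UTP-glucose-1-phosphate uridylyltransferase, 94.8). Of 7 genes of the pentose phosphate pathway, 3 had one (42.9%), namely CG8036 (585.3), Rpe (ribulose-phosphate epimerase, 111.9) and Taldo (transaldolase, 84.1). Of 21 genes of pyruvate dehydrogenase and the citrate cycle, 3 had one (14.3%, near the share over all genes). They were Idh3g (a subunit of isocitrate dehydrogenase, 630.7), Pdhb (a subunit of pyruvate dehydrogenase, 169.2) and Idh (another isocitrate dehydrogenase, 87.9). Of 9 known regulators, 2 had one (22.2%), namely bigmax (181.3), the partner of the sugar sensor Mondo, and Max (106.1), the partner of Myc. Of these 11 genes, CG8036 and Taldo had a summit at a TSS in the list of replicate 1 alone, UGP and Max in that of replicate 2 alone and Idh in neither, and the others in both.

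A further list held 13 matched paralogues of glycolytic enzymes and related genes. Of these, 0 had a summit within 250 bp of a TSS, against 10.2% of all genes. A peak within 2 kb lay at 4 (30.8%, against 27% of all genes). These were Hex-C (signal 1629.4), CG12229 (550.2), Pfrx (110.8) and CG7362 (102.0). The list included the aldolase genes, whose enzyme is not among the 10 members and which had 0 peaks. Of 5 genes of gluconeogenesis, the reverse pathway, 0 had a summit at a TSS. A peak within 2 kb lay at 2 of them (40%, against 27% of all genes), Pepck2 (signal 122.1) and PCB (119.8). The peak within 2 kb of Hex-C, a hexokinase paralogue, was thus stronger than the Gapdh2 peak (992.2), but its summit was not within 250 bp of a Hex-C TSS.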

How the data were processed

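The deposited files were lists of peaks on dm6, per the labels, which also state sonication to fragments of 200 to 800 bp. The sources used here name no aligner and no peak caller. The signal of each peak was deposited by the authors as their caller gave it, and so were −log10 values of the q-value and, in the ranked lists, of the irreproducible discovery rate. Genes came from Ensembl BDGP6.54, release 115, and bases from RefSeq Release 6, read with Python 3.11.15, pandas 2.3.3 and Biopython 1.88. Summits were assigned to genes and start sites by position, which was checked on simulated peaks with known answers. Upstream sequences were aligned globally with a match of 1, a mismatch of 0, and gap penalties of −2 to open and −0.5 to extend. The genes and lists were chosen with earlier results of these data known. The text names all 10 members, up to 4 genes per pathway list by signal at a TSS, the genes nearest to member peaks and the promoter peaks next to Gapdh2 in signal. Pepck2, PCB, Hex-C, CG12229, Pfrx and CG7362 were named after their values were seen. Other lists, windows, flanks and thresholds were tried. With 2 replicates of 1 group there was no test between groups.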

Additional observations from a re-analysis of the deposited data

How the results depend on the processing

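Of 40 alternatives, 27 left a count within 1.5 times the one reported, or a Gapdh2 value within 1 SD between the replicates of it. Some of these outcomes were fixed by the choice of alternative, so the tally does not measure robustness. The larger list and the stricter IDR hold the same Gapdh2 peak, and −log10 q is on another scale than the signal. Gapdh2 kept its peak in all 4 thresholded lists, and Gapdh1 had none in any of them, so no thresholded signal of Gapdh1 could be recomputed. The signal of Gapdh2 ran from 381.4 to 607.0 in the own lists of single replicates, its rank from 17 to 66 and its summit from −158 to −167 bp. These signals are on the scale of single libraries. As −log10 q the same peak had a value of 2.91, a ceiling that many peaks of the conservative list share, among them the main Eno peak and both stronger Hex-A peaks. The own lists of single replicates gave 4 to 7 members with a peak, 7 to 9 peaks and 4 to 5 members with a summit at a TSS.

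The count of members with a summit within 250 bp of a TSS, 5, was 3 at an IDR of 0.001 or less, 3 with the TSS farthest 5′ alone, and 1, Pglym78, within 100 bp. The 11 peaks were 6 at an IDR of 0.001 or less and 5 in the gene bodies without a flank. Both counts include the Eno peak of signal 2.44 that overlaps the main Eno peak. It had the same −log10 IDR as the main peak, 5, but ranked 3828 of 3831 in signal and was in neither replicate's list. With all ranked peaks of IDR 0.01 or less, an alternative chosen after seeing the data, there were 17 peaks, and the added 6 all lay at Pgk. The 8 motif matches were 16 within 100 bp of the summit. No paired analysis was possible because there was 1 group. The limits are that no control library was analysed here, that depth is unknown, that 2 replicates give a spread and no test, and that peaks in whole embryos do not tell cell types or stages apart.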
